A study of Mus musculus with 4 samples.

Results

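The constitutive proteasome subunits are the genes of the proteasome particle that most cells carry, and they were followed here in flow-sorted AEC2, the type II epithelial cells that make surfactant and act as stem cells of the lung alveolus. A gene was a member when the platform annotation gave a probe set the single symbol Psma, Psmc or Psmd followed by digits alone, or Psmb1 to Psmb7. This gave 35 genes read by 73 probe sets, of 18194 genes and 45101 probe sets in all. The similarly named Psmc3ip, a meiotic recombination gene, was not counted. Of the members, 30 passed the filter on dim genes, which kept the 9097 genes with a mean log2 signal over the median gene (7.05).

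The 4 arrays held 1 sample each of wild-type (WT) untreated, Tlr4-/- untreated, WT at day 4 after bleomycin and Tlr4-/- at day 4 after bleomycin. Tlr4 encodes a receptor of innate immunity, and bleomycin is a drug that damages DNA and injures the lung epithelium. Each sample was RNA of AEC2 flow sorted from the lungs of 4 to 5 mice and pooled, so a group has no replicate. Nothing used here states the strain, age or sex of the mice, the dose of bleomycin or the Tlr4 allele. The series asks how hyaluronan and TLR4 bear on the renewal of these stem cells and on fibrosis, and the array comparison asks how AEC2 of the 2 genotypes differ before and after injury.

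The proteasome degrades proteins that carry chains of ubiquitin. Its core particle is a barrel of stacked rings: outer alpha rings (Psma genes) gate the entry, and inner beta rings (Psmb genes) hold the proteolytic sites. A regulatory particle sits on the ends of the barrel, with a base of ATPases (Psmc genes) that unfold the substrate and further subunits (Psmd genes) that bind ubiquitin chains or form a lid that removes them. The subunit genes are known to be transcribed together, among others by NRF1 (Nfe2l1) when proteasome activity falls short and by NRF2 (Nfe2l2) under oxidative stress. Interferon signalling replaces the catalytic subunits by immunoproteasome subunits.

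The AEC2 genes Sftpc, Sftpb and Lyz2 had log2 signals between 13.93 and 14.06 on every array, and the summed linear signal of 17 AEC2 markers lay between 129550 and 140779. Such a sum rests mostly on its brightest genes. Of the 17 markers, 6 were higher at day 4 in WT and 3 in Tlr4-/-, with median differences of -0.05 and -0.16. Both day 4 arrays lay below both untreated arrays for 9 of the 17, against 1971 of all 9097 genes past the filter. The summed signal of 18 leukocyte and macrophage markers was 3497 in WT untreated, 3875 in Tlr4-/- untreated, 8816 in WT day 4 and 11337 in Tlr4-/- day 4. After bleomycin 12 of the 14 past the filter rose, against 7.18% of all genes. The pan-leukocyte gene Ptprc was at 6.69, 7.41, 7.54 and 7.61 in that order. Sums of 6 mesothelial markers (967, 415, 1817 and 1464) and of 7 fibroblast markers (773, 575, 1559 and 1349) were also higher on both day 4 arrays. Those of 7 endothelial markers, of which 0 passed the filter, were lower on both (537, 510, 409 and 402). The sums of 8 neutrophil and 10 airway markers had neither order. Of the sex-linked genes, Eif2s3y on the Y chromosome was at 6.82 and 6.86 on the untreated arrays and at 8.85 and 8.87 at day 4, while Xist, from the inactive X, was at 11.41 and 11.30, then 10.79 and 10.04. The difference between 3' and 5' control probe sets is a sign of RNA quality. In the order WT untreated, Tlr4-/- untreated, WT day 4 and Tlr4-/- day 4 it was 1.17, 1.20, 1.06 and 0.98 for Gapdh. For Actb it was -0.287, -0.282, -0.297 and -0.494. For both genes both day 4 arrays were below both untreated arrays, with the lowest values on the Tlr4-/- day 4 array. The part of other cells, sex and RNA quality in the results on the proteasome was not tested. Both sex-linked genes differed between the treatments, so the sex of the pooled mice and bleomycin cannot be told apart with 1 array per group. In pooled RNA, a change in the share of a cell type and a change of RNA per cell cannot be told apart.

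After bleomycin, nearly the whole set of proteasome genes was higher in both genotypes. In WT, 33 of the 35 members were higher at day 4, with a median difference of 0.46 (log2) and a range from -0.39 to 1.09. In Tlr4-/-, 33 of 35 were also higher, with a median of 0.42 and a range from -0.09 to 0.86. The exceptions were Psma8 and Psmd9 in WT and Psmd3 and Psmd10 in Tlr4-/-. Of the 35 members, 1 reached 2-fold in WT, Psmd14, and 0 did in Tlr4-/-. Of all genes past the filter 2.55% and 2.45% did. These counts are near those shares and do not set the members apart, and the 35 include members below the filter. In WT the highest differences were those of Psmd14 (1.09), Psmd6 (0.93) and Psma6 (0.82), and the lowest those of Psma8 (-0.39), Psmd9 (-0.015) and Psma3 (0.078). The dimmest probe set of Psma6 had 1.27 and its brightest had 0.68. The bright probe set of Psma3 had 0.50. In Tlr4-/- the highest were Psmb3 (0.86), Psmb7 (0.83) and Psmd12 (0.74), and the lowest Psmd10 (-0.086), Psmd3 (-0.034) and Psmd2 (0.0020).

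The spread used for a difference between 2 arrays was an SD of 0.23, taken from the limma fit and not from replicates. In WT, 29 of the 30 members past the filter were higher by more than this spread, against 30.4% of all genes, and in Tlr4-/- 20 of 30 were, against 26.7%. Lower by more than the spread were 0 members in either genotype, against 15.9% of all genes in WT and 23% in Tlr4-/-. Above 0 were 30 of 30 in WT (59.5% of all genes) and 28 of 30 in Tlr4-/- (51.7%). The medians over these 30 members were 0.47 in WT and 0.41 in Tlr4-/-, beside 0.07 and 0.01 over all genes past the filter. Proteasome genes are bright, and the arrays differed a little with brightness. The 2907 other genes between the quartiles of the members' mean signals, 8.79 and 10.77, had medians of 0.08 and 0.02. Both day 4 arrays lay above both untreated arrays for 28 of the 30 members, against 30.4% of all genes and 31.6% of those equally bright genes.

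**Figure D1:**
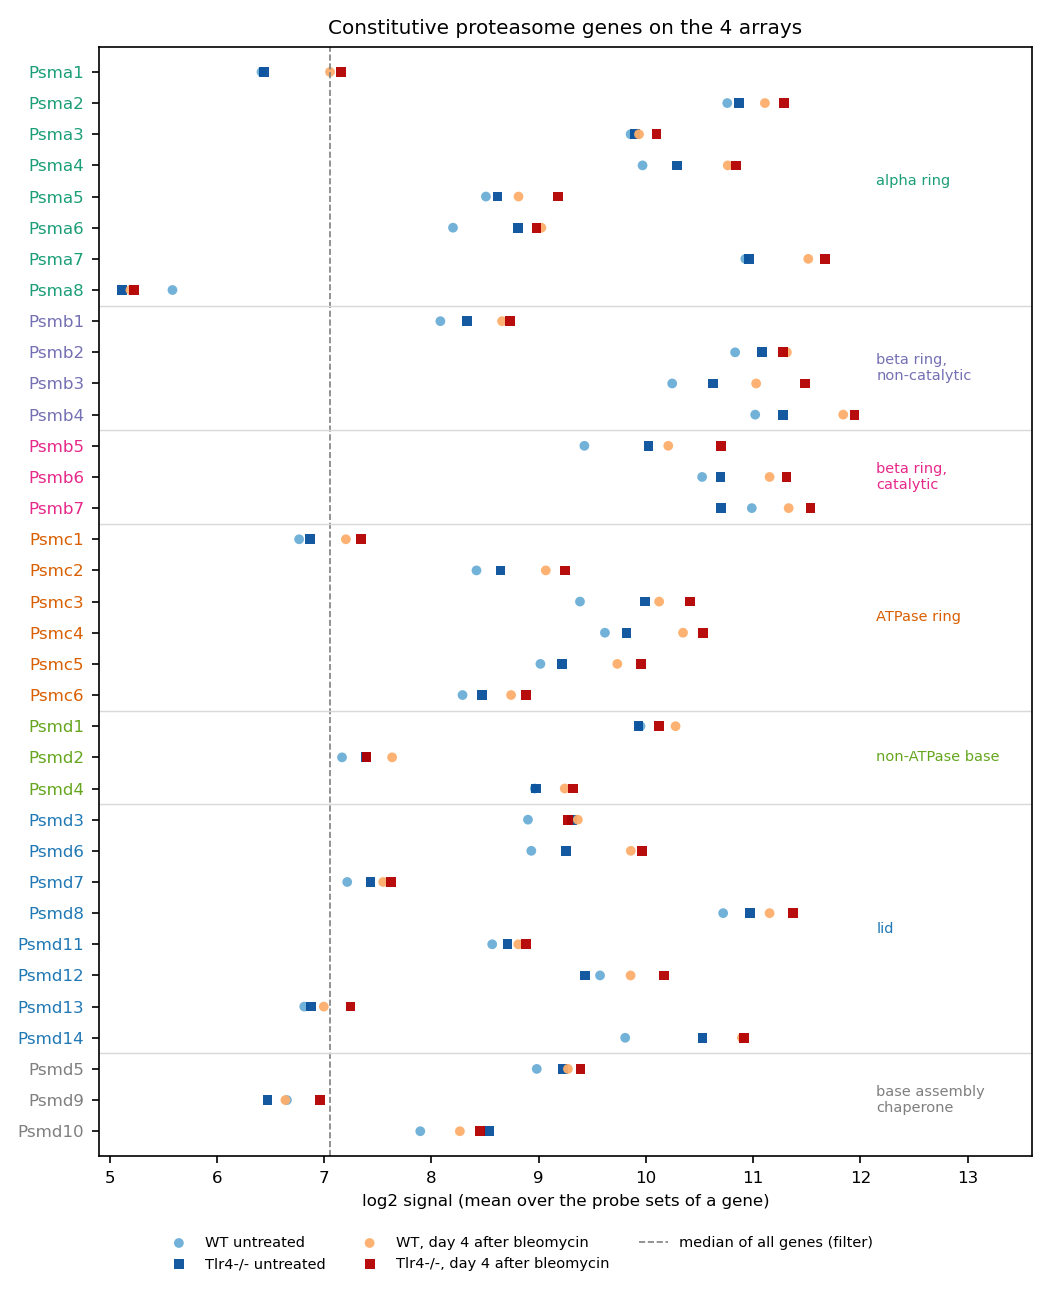
Log2 signal of each of the 35 proteasome genes (rows, grouped by role) on the 4 arrays (points, 1 array each), averaged over the probe sets of a gene. In most rows both day 4 points lie to the right of both untreated points, and Psma8 is the dimmest gene at 5.11 to 5.59.

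The alpha ring genes were higher at day 4 with the exception of Psma8, the testis form of an alpha subunit. Psma7 was at 10.93 in WT untreated, 10.96 in Tlr4-/- untreated, 11.51 in WT day 4 and 11.67 in Tlr4-/- day 4, so the genotypes were close within each treatment and the treatments did not overlap. It rose by 0.65 ± 0.16 (SE, limma, both genotypes; adjusted p = 0.0209). Psma4 went from 9.97 and 10.29 in WT and Tlr4-/- untreated to 10.76 and 10.84 at day 4, and rose by 0.67 ± 0.16 (adjusted p = 0.0190). Psma2, Psma3, Psma5 and Psma6 had bleomycin effects between 0.14 and 0.50 that did not pass. Psma3 was nearly level at 9.86, 9.90, 9.94 and 10.10, a mean of a bright probe set that was higher at day 4 and a dimmer one that was lower. Psma5 was highest in Tlr4-/- day 4, at 8.51, 8.62, 8.81 and 9.18. Psma6 was at 8.20, 8.81, 9.03 and 8.98, with WT untreated the low array, while its brightest probe set was at 10.97, 11.14, 11.65 and 11.91. A setting added after the values were seen left dim probe sets out of the average. There Psma5 rose by 0.72 and Psma6 by 0.63 (limma, adjusted p = 0.00257 and 0.00623). Psma8 was at 5.59, 5.11, 5.19 and 5.23, below the filter. Psma1, whose brightest probe set went from 9.52 to 10.43 in WT and from 9.82 to 10.46 in Tlr4-/-, fell below the filter when averaged with dim probe sets.

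In the beta ring 5 of 7 genes rose. These were all 3 catalytic genes, and Psmb3 and Psmb4 of the 4 others. Psmb5, which carries the chymotrypsin-like site, was at 9.43 in WT untreated, 10.02 in Tlr4-/- untreated, 10.21 in WT day 4 and 10.70 in Tlr4-/- day 4, and rose by 0.73 ± 0.16 (adjusted p = 0.0112). Its 4 values were in steps, with the Tlr4-/- untreated array nearer to WT day 4 than to WT untreated. Psmb6, with the caspase-like site, was at 10.52, 10.70, 11.15 and 11.31 in the same order and rose by 0.62 ± 0.155 (adjusted p = 0.0252). Psmb7, with the trypsin-like site, was at 10.99, 10.70, 11.33 and 11.53 and rose by 0.59 ± 0.17 (adjusted p = 0.0473). It was 1 of the 5 members lower in Tlr4-/- untreated than in WT untreated. Among the structural beta subunits, Psmb3 was at 10.25, 10.63, 11.03 and 11.48, the highest bleomycin effect of the members tested at 0.82 ± 0.16 (adjusted p = 0.00542). Psmb4 was at 11.02, 11.28, 11.84 and 11.95 and rose by 0.74 ± 0.16 (adjusted p = 0.0103). Psmb1 and Psmb2 were higher by 0.49 and 0.34 without passing.

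Promoter windows of 28 of the members were found in RefSeq (build GRCm38.p6; 250 bases before to 50 after the start, 30 windows). The core of the antioxidant response element, TGACNNNGC on either strand, which NRF1 and NRF2 are known to bind, occurred in 5 of the 30 windows (16.7%) and in 12.4% of 32851 windows of all genes. These were 1 window each of Psmb5, Psmb6, Psmc6, Psmd12 and Psmd9. Psmb5 and Psmb6 hold it 47 and 9 bases before the start and rose, and no other called member had a window with it. Psmd9, with the motif 31 bases before the start, was below the filter. Psmc6 and Psmd12, with it 227 and 247 bases before, did not pass. A link between the motif and the rise was not tested. The windows of the catalytic genes Psmb5 and Psmb6 are shown as examples. They lie at chr14:54617946-54618245 on the minus strand and chr11:70525107-70525406 on the plus strand, are written 5′ to 3′ along the gene, and have the motif in capitals.
Psmb5: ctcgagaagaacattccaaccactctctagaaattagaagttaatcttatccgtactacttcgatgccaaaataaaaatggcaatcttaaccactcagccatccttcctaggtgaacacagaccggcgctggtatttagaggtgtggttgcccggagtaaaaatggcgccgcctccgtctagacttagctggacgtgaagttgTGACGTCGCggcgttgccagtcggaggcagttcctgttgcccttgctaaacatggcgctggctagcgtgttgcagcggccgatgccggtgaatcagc
Psmb6: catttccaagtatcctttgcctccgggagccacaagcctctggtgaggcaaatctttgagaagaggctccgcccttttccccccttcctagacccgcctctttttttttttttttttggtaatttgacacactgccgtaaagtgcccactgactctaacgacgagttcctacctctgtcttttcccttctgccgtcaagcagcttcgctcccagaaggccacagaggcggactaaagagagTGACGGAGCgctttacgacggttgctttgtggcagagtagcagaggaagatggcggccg
The motif CCAAT, read by the factor NF-Y, was in 11 of the 30 windows (36.7%) and in 37.4% of all. The AP-1 motif TGACTCA was in 1 window (3.33% against 5.20%), and TTCNNNGAA, read by STAT factors, was in 1 (3.33% against 8.30%). The motifs were searched on both strands, and a match is a run of letters and not a shown binding site.

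In the ATPase ring of the base, 4 of the 5 members past the filter rose. Psmc5 was at 9.02 in WT untreated, 9.22 in Tlr4-/- untreated, 9.73 in WT day 4 and 9.95 in Tlr4-/- day 4, a rise of 0.72 ± 0.15 (adjusted p = 0.0112). Psmc4 was at 9.62, 9.82, 10.35 and 10.53 in that order and rose by 0.72 ± 0.15 (adjusted p = 0.0116). In both genes each step from 1 genotype to the other was between 0.19 and 0.22, and the responses of the genotypes differed by 0.016 for Psmc5 and -0.017 for Psmc4. Psmc2 was at 8.42, 8.64, 9.07 and 9.25 and rose by 0.62 ± 0.16 (adjusted p = 0.0247). Psmc3 was at 9.39, 9.99, 10.12 and 10.41 and rose by 0.58 ± 0.16 (adjusted p = 0.0417), and its untreated arrays already differed by 0.61. Psmc6 was higher by 0.43 without passing. Psmc1 fell below the filter through a very dim probe set; its other probe set went from 10.22 to 11.02 in WT and from 10.42 to 11.29 in Tlr4-/-.

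The other subunits of the regulatory particle were less even. Of the lid genes, Psmd6 rose by 0.82 ± 0.16 (adjusted p = 0.00594), from 8.93 and 9.26 in WT and Tlr4-/- untreated to 9.86 and 9.96 at day 4. Psmd14, the deubiquitinase that cuts ubiquitin chains off the substrate, was at 9.81, 10.53, 10.90 and 10.91 in WT untreated, Tlr4-/- untreated, WT day 4 and Tlr4-/- day 4, and rose by 0.74 ± 0.18 (adjusted p = 0.0255). The WT untreated array was the low one for this gene, and the day 4 arrays were level. Psmd12 was at 9.57, 9.43, 9.86 and 10.17, the highest being Tlr4-/- day 4, and did not pass (effect 0.51). The other lid genes past the filter, Psmd3, Psmd7, Psmd8 and Psmd11, had effects from 0.21 to 0.42 that did not pass. Psmd3 was at 8.90, 9.31, 9.37 and 9.28, level on all arrays but WT untreated. Psmd13 was below the filter, with differences of 0.18 in WT and 0.37 in Tlr4-/-.

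The non-ATPase genes of the base, Psmd1, Psmd2 and Psmd4, did not pass, with effects of 0.26, 0.23 and 0.31. Psmd1 was at 9.95, 9.93, 10.28 and 10.12 in the same order of arrays. Psmd2, a scaffold of the base, was at 7.17, 7.39, 7.63 and 7.39, a mean of a bright and a very dim probe set. The bright one was at 9.87, 10.34, 10.56 and 10.59, higher after bleomycin by 0.69 in WT and 0.25 in Tlr4-/-. Psmd5, Psmd9 and Psmd10 encode chaperones that help assemble the base and leave the finished particle. Psmd5 was higher by 0.23 and Psmd10 by 0.14 without passing, Psmd10 being highest in Tlr4-/- untreated at 7.90, 8.54, 8.27 and 8.45, and Psmd9 was below the filter at 6.65, 6.47, 6.64 and 6.96. Median bleomycin effects by role over the members past the filter were 0.62 for the 3 catalytic beta genes, 0.61 for the 4 other beta genes, 0.62 for 5 ATPases, 0.46 for 6 alpha genes, 0.42 for 7 lid genes, 0.26 for 3 non-ATPase base genes and 0.18 for 2 assembly chaperones. These medians depended on the dim probe sets in the averages. With the brightest probe set of each gene, the effects of the base genes were 0.26 for Psmd1, 0.47 for Psmd2 and 0.48 for Psmd4, and among the lid genes Psmd7 had 0.50 and Psmd11 had 0.49. The roles were not tested against each other.

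**Figure D2:**
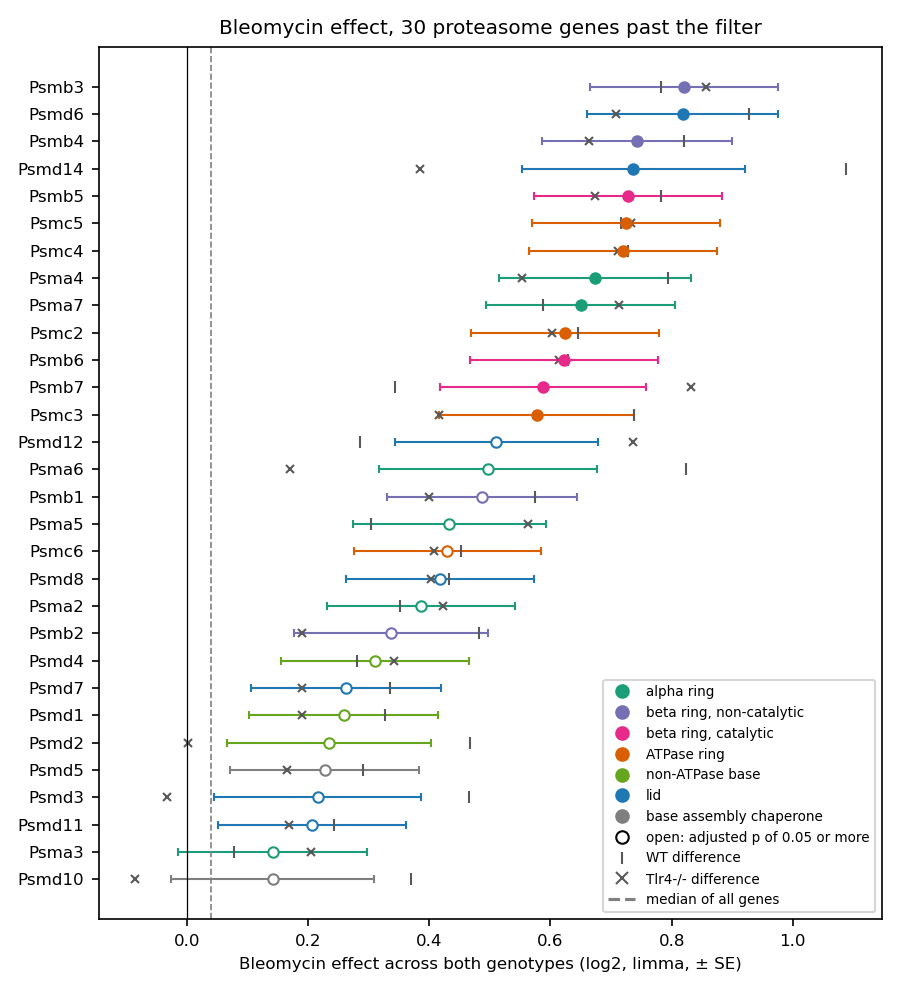
Bleomycin effect across both genotypes (log2, circles with the limma SE) of the 30 proteasome genes past the filter, coloured by role, with the WT difference (bar) and the Tlr4-/- difference (cross) of each gene; filled circles passed an adjusted p of 0.05. The effects run from 0.14 (Psma3 and Psmd10) to 0.82 (Psmb3), all above the median of all genes at 0.04.

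In total 13 of the 30 members rose and 0 fell in the limma fit (Benjamini-Hochberg over 9097 genes), against 7.18% of all genes that rose and 2.53% that fell. Of the equally bright genes, 6.26% rose. At an unadjusted p under 0.05 there were 20 members, all higher, against 23.9% of all genes in either direction. The adjusted p-values of the 13 lay between 0.00542 and 0.0473. The count depended on the setting, and so did the share of all genes that rose. It was 2 members after centring on array medians (2.98% of all genes), 1 without the filter (1.75%) and 4 of 34 with the brightest probe set per gene (3.07%). With dim probe sets left out of the average it was 21 of 31 (11.2%). Fits without 1 array had treatment alone in the model and 1 array left in a treatment. There fewer or no members passed without the WT untreated array or either day 4 array, but not without the Tlr4-/- untreated array. The members' median effect was 0.35 without the WT untreated and 0.53 without the Tlr4-/- untreated array. It was 0.57 without the WT day 4 and 0.40 without the Tlr4-/- day 4 array, against 0.49 with all arrays. The fit had 1 residual degree of freedom per gene, and its SEs rest mostly on the variance pooled over all genes (11.4 prior degrees of freedom), with no replicate behind them.

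Probe sets showed how far averaging dims the values. Of the 73 member probe sets, 57 lay above the median of all probe sets, and 51 of these were higher after bleomycin in both genotypes. The same share over all probe sets is not given here, so this count only describes. Of all genes past the filter, 59.5% were above 0 in WT and 51.7% in Tlr4-/-. Lower in both were 4 of the 57, 1 each of Psma1, Psma3, Psmd4 and Psmd11, and each of these genes had a brighter probe set that was higher in both. For Psma3 the bright probe set went from 11.11 to 11.60 in WT and from 11.24 to 11.72 in Tlr4-/-, while the dimmer one differed by -0.34 and -0.08. With the brightest probe set of each gene, the median differences were 0.63 in WT and 0.58 in Tlr4-/-. Over all genes past the filter in that setting they were 0.10 and 0.03. There 34 of 34 members past the filter were higher in WT and 32 of 34 in Tlr4-/-.

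**Figure D3:**
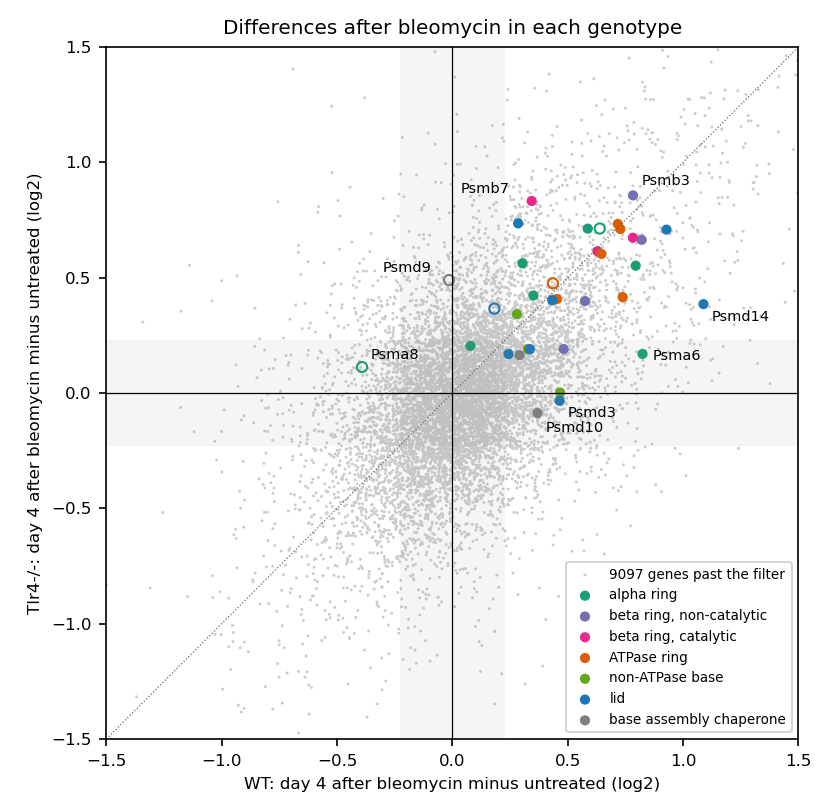
Difference after bleomycin in WT (x axis) against that in Tlr4-/- (y axis), both log2, for 9097 genes past the filter (grey) and the proteasome genes by role (coloured; open circles are members below the filter); the bands mark the spread of 0.23 around 0 and the dotted line marks equal differences. Both axes stop at 1.5 either way, so some other genes lie outside. Most members sit above 0 on both axes, with Psmd3 and Psmd10 just under 0 in Tlr4-/- and Psma8 and Psmd9 left of 0 in WT.

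In the untreated cells, most proteasome genes were higher in Tlr4-/- than in WT, by less than after bleomycin. Of the 35 members 30 were higher, with a median of 0.20 and a range from -0.47 to 0.72. Over the 30 past the filter, 27 were above 0, against 62.2% of all genes, and the median was 0.22 beside 0.08 for all genes and 0.11 for the equally bright ones. After quantile or cyclic loess normalization the median was 0.17 with 24 of 30 above 0. Above the spread were 14 of 30 members, against 29.3% of all genes, and 1 was lower by more than it (Psmb7), against 12.6%. The highest were Psmd14 at 0.72, Psmd10, known as gankyrin, at 0.64 and Psma6 at 0.61, followed closely by Psmc3 at 0.61 and Psmb5 at 0.60. The value of Psma6 was raised by its dimmest probe set (1.48), and its brightest 2 probe sets had 0.17 and 0.20. Psma8, Psmb7 and Psmd9 were the lowest at -0.47, -0.29 and -0.18. This comparison shares the WT untreated array with the WT bleomycin comparison, so a low value on that array raises both.

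At day 4 the genotypes lay closer. Of the 35 members 30 were higher in Tlr4-/-, with a median of 0.14 and a range from -0.24 to 0.49. Past the filter 25 of 30 were above 0, against 53.2% of all genes, 5 of 30 were above the spread, against 17.3%, and 1 (Psmd2) was lower by more than it, against 11.6%. The difference of Psmd2 came from its dim probe set (-0.51), while the bright one had 0.033. The highest were Psmb5 at 0.49, Psmb3 at 0.45 and Psma5 at 0.37, and the lowest Psmd2, Psmd1 and Psmd3 at -0.24, -0.16 and -0.09. Psmb5 was the only member higher in Tlr4-/- by more than 0.4 in both treatments. Across both treatments limma called 0 members and 0 of all genes for genotype (0% either way). At an unadjusted p under 0.05 were 4 members, against 9.04% of all genes, namely Psmb3, Psmb5, Psmc3 and Psmd10, each higher in Tlr4-/-. The smallest adjusted p of a member was 0.304, for Psmb5 with a genotype effect of 0.54. The other settings also called 0 members for genotype, while of all genes they called 11 as higher in Tlr4-/- without probe sets ending in _x_at or _s_at, 14 with the stricter filter, 31 with dim probe sets left out and 0 otherwise.

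Of the 30 members, 22 had the same order of the 4 arrays, WT untreated lowest, then Tlr4-/- untreated, WT day 4 and Tlr4-/- day 4, against 14.1% of all genes and 15.5% of the equally bright ones. Another 3 members (Psma6, Psmb2 and Psmd2) had the day 4 arrays swapped and 2 (Psmb7 and Psmd12) the untreated arrays. Many of the steps between neighbouring arrays were smaller than the spread, so the order of single genes is not firm.

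The responses of the genotypes differed in both directions around a small median. The Tlr4-/- response minus the WT response was above 0 in 14 of 35 members and below 0 in 21, with a median of -0.04. Past the filter 9 of 30 were above 0, against 40.8% of all genes, and the median was -0.09 beside -0.07 for all genes and -0.09 for equally bright ones. Of the 35 members, 5 lay above the spread and 8 below it, against 18.6% and 30.3% of the genes past the filter. These counts only describe, since the spread is that of a difference between 2 arrays and this one takes 4. The fit behind the spread also has this same difference as its only residual. The 35 include members below the filter, unlike the shares. The lowest were Psmd14 at -0.70, Psma6 at -0.65 and Psmd3 at -0.50, and the highest Psma8 and Psmd9 at 0.50 each and Psmb7 at 0.49. With 1 array per group none of these could be tested. For Psma6 the value came mostly from the dimmest of its 4 probe sets, at 3.97, 5.45, 5.23 and 4.40 (-2.32). The next dimmest had -0.39, and the brightest 2 had 0.082 and 0.0089.

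The immunoproteasome subunits, which replace the catalytic beta subunits, moved with them in part. Psmb9 was at 9.08 in WT untreated, 9.40 in Tlr4-/- untreated, 10.30 in WT day 4 and 10.21 in Tlr4-/- day 4 and rose by 1.02 ± 0.17 (adjusted p = 0.00184). Psmb8 was at 7.21, 7.25, 7.89 and 8.14 and rose by 0.78 ± 0.16 (adjusted p = 0.00789). Psmb10 was at 9.69, 9.74, 9.81 and 9.95 and did not pass. The thymus-specific Psmb11 lay below the filter. Of the interferon-stimulated genes past the filter 10 of 12 rose, against 7.18% of all genes, with a median effect of 0.79. Leukocytes are known to express immunoproteasome subunits too, and their markers, given above, were higher on both day 4 arrays. The part of leukocytes in these values was not tested and cannot be told apart in pooled RNA. Of a list of proteasome activators and the inhibitor, 0 of the 3 genes past the filter passed, with Psme1 higher by 0.38 and Psme3 by 0.16.

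Assembly factors and bound enzymes were set beside all genes past the filter, of which 7.18% rose and 2.53% fell. In lists this small, such counts of calls say little about the lists. Of 6 assembly genes past the filter 1 rose, Psmg2, a chaperone of alpha ring assembly, by 0.81 ± 0.16 (adjusted p = 0.00570), from 6.73 and 7.12 in WT and Tlr4-/- untreated to 7.59 and 7.88 at day 4. Pomp, the maturation factor of the beta ring, was higher by 0.27 without passing. Of 10 further subunits, bound enzymes and ubiquitin shuttles 0 rose and 1 fell, the shuttle Ubqln2 by 0.55 ± 0.16 (adjusted p = 0.0431). The small lid subunit Sem1 was higher by 0.18 and the deubiquitinase Uchl5 by 0.43 without passing. The medians of these 2 lists were 0.16 and 0.00.

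Among 14 regulators of proteasome genes past the filter 0 rose and 1 fell, against 7.18% and 2.53% of all genes. The gene that fell was Nfe2l3, a relative of NRF1, by 0.70 ± 0.16 (limma, adjusted p = 0.0152). Nfe2l1, whose product NRF1 is controlled largely after translation, was at 10.09 in WT untreated, 10.62 in Tlr4-/- untreated, 10.15 in WT day 4 and 10.05 in Tlr4-/- day 4, so the Tlr4-/- untreated array was the high one. Nfe2l2 was higher by 0.30 after bleomycin without passing. Of the NRF2 targets 3 of 15 rose, against 7.18% of all genes. These were Ephx1 by 1.68 ± 0.16, Akr1b8 by 1.57 ± 0.16 and Srxn1 by 1.11 ± 0.16. The list had a median of 0.41 in WT and 0.17 in Tlr4-/-.

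**Figure D4:**
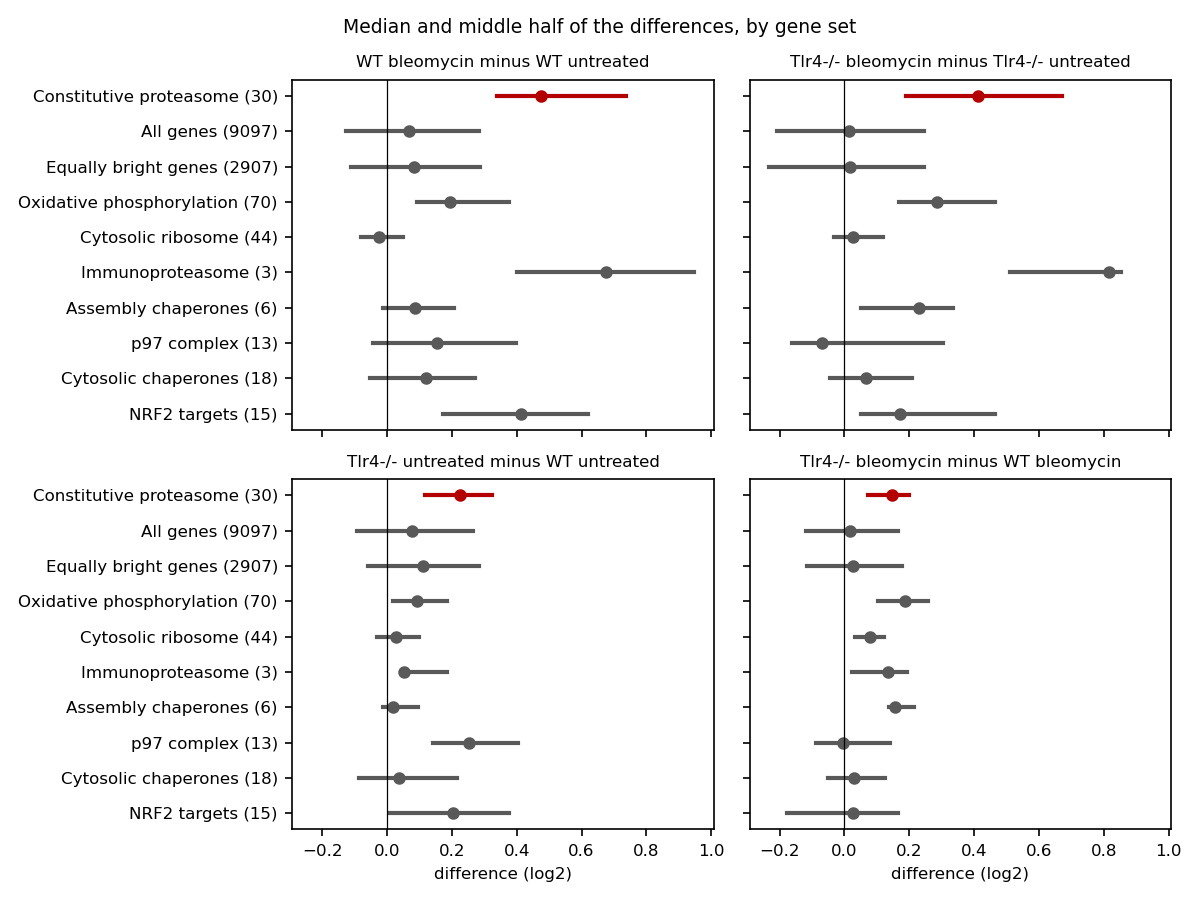
Median (point) and range between the quartiles (line) of the log2 differences of gene sets (members past the filter in brackets) in 4 comparisons between single arrays. The proteasome genes (red) have medians of 0.47 and 0.41 after bleomycin, 0.22 between untreated arrays and 0.15 between day 4 arrays.

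Other large complexes were set beside the proteasome. Subunits of oxidative phosphorylation encoded in the nucleus, read by 70 genes past the filter, had medians after bleomycin of 0.19 in WT and 0.28 in Tlr4-/-, and 9 of 70 rose. Cytosolic ribosomal proteins, 44 genes, had medians of -0.03 and 0.03, and 2 of 44 rose. Of all genes past the filter 7.18% rose. The difference between these sets and the proteasome was described and not tested. Within the proteasome, the SD of the differences among the 30 members was 0.24 in WT and 0.27 in Tlr4-/-, against 0.38 and 0.42 among the 2907 equally bright genes. The other complexes were closer together than the proteasome genes. In WT the quartiles of the differences were 0.34 and 0.74 for the proteasome, 0.091 and 0.38 for oxidative phosphorylation, and -0.080 and 0.049 for the ribosome. In Tlr4-/- they were 0.19 and 0.67, 0.17 and 0.47, and -0.032 and 0.12.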

How the data were processed

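AEC2 RNA of 4 pools was amplified, biotin labelled and hybridised to Affymetrix arrays, per the labels' protocols. The deposited value of each probe set was taken to be on a log2 scale, judging by its range. The normalization and software of the authors are not given in the sources used here. Medians of the arrays lay between 6.93 and 6.98. Probe sets with 1 symbol (34958) were averaged per gene, with symbols updated through RefSeq (34754 matched); 932 with several symbols and 9211 with none were left out. Single-array differences have no test and used a threshold of 2-fold or the spread of 0.23. The bleomycin and genotype effects were fitted with limma 3.58.1 in R 4.3.3 (additive model, lmFit, eBayes) and called at a Benjamini-Hochberg adjusted p under 0.05. Tested on simulated data, the fit missed most changes of the size of the members' median effect, and its share of false calls was above the nominal level. The simulation changed 200 of 9097 genes and held no genotype effect. The fit of the real data called 653 genes as higher and 230 as lower after bleomycin, so the simulated rates need not hold there.

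Named genes were the catalytic and immunoproteasome subunits, the members called by limma, the 3 highest and 3 lowest of each difference, and up to 4 genes of each pathway list. The members and lists were chosen with earlier results of these data known; the sets of oxidative phosphorylation and ribosomal genes and of equally bright genes were added after the values were seen. Alternatives were another choice of probe sets, filters, scalings, a variance trend and leaving out each array. The number of arrays, 4, limits the precision.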

Additional observations from a re-analysis of the deposited data

Results flagged for a closer look

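In 4 members the difference after bleomycin had opposite signs in the genotypes, which was not tested since each genotype has 1 array per treatment. Psmd3 was higher by 0.46 in WT and differed by -0.034 in Tlr4-/-. Psmd10 was higher by 0.37 in WT and differed by -0.086 in Tlr4-/-. Psma8 differed by -0.39 in WT and by 0.11 in Tlr4-/-, and Psmd9 by -0.015 and 0.49, both below the filter. For Psmd9 the brightest probe set was higher in both, by 0.49 in WT and 0.67 in Tlr4-/-. In each of the 4 genes 1 of the 2 differences was smaller than the spread of 0.23.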

How the results depend on the processing

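The count of members that rose after bleomycin, 13 of 30, was 4 of 34 with the probe set of highest mean, 1 of 35 without the filter, 2 of 30 after centring on array medians and 21 of 31 with probe sets below the median left out, a setting chosen after seeing the data. It was between 9 and 16 under quantile normalization, cyclic loess (also added after seeing the data), a stricter filter, a variance trend and without probe sets ending in _x_at or _s_at. Leaving out 1 array each, in fits with the tested factor alone where the lone array of a treatment is taken to vary like the others, gave 0 to 14. Of all genes tested, 3.07%, 1.75%, 2.98% and 11.2% rose under the first 4 settings, against 7.18% in the reported fit. Without the WT untreated, Tlr4-/- untreated, WT day 4 and Tlr4-/- day 4 array they were 4.12%, 8.82%, 0.198% and 0%. The cause of these moves was not tested. The median bleomycin effect of the members stayed between 0.35 and 0.59 under the settings run, against 0.49. The effect of Psmd10 ran from -0.18 (without the WT untreated array) to 0.46 (without the Tlr4-/- untreated array). Over the settings with all arrays, the members' median was 0.42 to 0.63 after bleomycin in WT, 0.37 to 0.58 in Tlr4-/-, 0.17 to 0.24 between untreated and 0.14 to 0.18 between day 4 arrays. The median difference between responses ran from -0.092 as reported to -0.019 with cyclic loess. No member was called as lower after bleomycin or for genotype under any setting run (0 of the members tested). No paired analysis was possible because each group has 1 array. Without detection calls, dim probe sets such as those of Psma8 limit what their values show.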

Other observations

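The p97 ATPase complex extracts ubiquitin-tagged proteins from membranes and complexes. Of its 13 genes past the filter 1 rose after bleomycin, against 7.18% of all genes. It was the ATPase Vcp itself, by 0.57 ± 0.16 (limma, adjusted p = 0.0461). Vcp was at 9.41 in WT untreated, 9.86 in Tlr4-/- untreated, 10.16 in WT day 4 and 10.25 in Tlr4-/- day 4, the order most proteasome genes had. The list had medians of 0.15 after bleomycin in WT, -0.07 in Tlr4-/- and 0.25 between the untreated arrays. Its cofactor Nsfl1c was higher by 0.50 without passing (adjusted p = 0.0621), and Derl1, of the channel for proteins leaving the endoplasmic reticulum, was higher in Tlr4-/- untreated by 0.49 and lower by -0.43 after bleomycin in Tlr4-/-.

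Cytosolic chaperones and chaperonin subunits had medians of 0.12 and 0.07 after bleomycin in WT and Tlr4-/-. Of these genes 1 of 18 rose, against 7.18% of all genes. It was the inducible heat shock gene Hspa1b, by 0.63 ± 0.18 (limma, adjusted p = 0.0456). Its values were 9.33, 9.24, 10.30 and 9.54 in the order above, with the WT day 4 array the high one.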
